A study of Mus musculus with 2 samples.

Results

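The glutathione, thioredoxin and antioxidant genes described here are 44 genes chosen by symbol, out of 15683 annotated genes with at least 1 read in the adrenal gland. They comprise glutathione peroxidases, peroxiredoxins, thioredoxins and their partners, glutaredoxins, the enzymes that make and recycle glutathione, glutathione S-transferases, superoxide dismutases, catalase and the quinone reductase Nqo1. In replicate 1, 43 of them had a read, and in replicate 2 all 44 did. The tissue came from male B6CASTF1/J mice, the offspring of C57BL/6J crossed with CAST/EiJ, at 36 days of age; reads from the parental alleles were not split. The study has 1 group and 2 libraries, called replicate 1 and replicate 2, with no treatment, mutation or control. The labels differ on whether the libraries share an animal, so the spread between them, and every p-value below, may be partly technical. Each read is a long read of a cDNA, and the libraries held 452489 reads (replicate 1) and 463210 reads (replicate 2) once spike-in RNA was left out.

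The adrenal gland surrounds a medulla of catecholamine-making chromaffin cells with a cortex that makes steroids. Steroid synthesis runs partly on mitochondrial cytochrome P450 enzymes, which leak electrons to oxygen and so form superoxide and hydrogen peroxide. Superoxide dismutases turn superoxide into hydrogen peroxide, and catalase, peroxiredoxins and glutathione peroxidases remove the peroxide. Peroxiredoxins are reduced by thioredoxin and, when over-oxidised, repaired by sulfiredoxin. Glutathione peroxidases and transferases draw on glutathione. In mice, Prdx3 and sulfiredoxin of the adrenal cortex have been linked to the daily cycle of corticosterone.

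In 5 of the 44 genes the leading transcript carries a codon that GENCODE M21 annotates as selenocysteine, the selenium amino acid at the catalytic site. It is written TGA, which otherwise stops translation. The coding bases around that codon are shown because the selenium peroxidases Gpx4, Gpx3 and Gpx1 were among the 8 most abundant of these genes. They run 5′ to 3′ in the sense of the gene, with the codon in capitals. Gpx7 and Gpx8 follow, with the codon that aligned with the TGA of Gpx4 in capitals, a cysteine codon in each. All were read from the M21 transcripts on mm10.
Gpx4: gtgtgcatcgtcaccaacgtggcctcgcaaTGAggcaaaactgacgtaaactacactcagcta
Gpx3: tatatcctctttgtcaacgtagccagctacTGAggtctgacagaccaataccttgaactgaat
Gpx1: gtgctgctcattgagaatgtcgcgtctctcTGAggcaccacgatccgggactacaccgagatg
Txnrd1: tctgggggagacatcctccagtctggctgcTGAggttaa
Txnrd3: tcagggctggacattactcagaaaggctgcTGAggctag
Gpx7: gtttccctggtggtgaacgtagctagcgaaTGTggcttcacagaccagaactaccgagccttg
Gpx8: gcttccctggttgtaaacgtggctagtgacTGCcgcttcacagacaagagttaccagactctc

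The TGA is codon 73 of 198 in Gpx4-202 (chromosome 10, 80054737 to 80054739) and codon 47 of 202 in Gpx1-201. In both thioredoxin reductases it comes near the end, at codon 498 of 500 in Txnrd1-208 and codon 614 of 616 in Txnrd3-201, stop codons counted. Gpx3-201 has it at codon 73 of 227. Gpx7 has TGT at codon 56 and Gpx8 has TGC at codon 79, on chromosomes 4 and 13.

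Together the genes took 12323 CPM in replicate 1 and 12923 CPM in replicate 2 (CPM is a gene's reads scaled to a common total of endogenous reads), a mean of 12623 ± 424 CPM (SD, n = 2). CPM was used without division by length because a cDNA is read as 1 long read whatever its length. In bulk tissue, fewer cells of a type and less RNA per cell cannot be told apart. The leading models ranged from 603 bases (Mgst2) to 5861 bases (Sod2), and whether cDNAs of unequal length were recovered equally was not tested. The 5 most abundant genes, Gpx4, Prdx1, Prdx2, Txn2 and Mgst1, held 43.2% of the summed level in replicate 1 and 44.8% in replicate 2. Mean levels reached 500 CPM in 8 genes, lay between 100 and 500 CPM in 17, and were under 100 CPM in 19. Neighbours in the order mostly overlapped: in 33 of 43 neighbouring pairs the ranges over the 2 libraries overlapped, and in 10 they did not. Gpx4 and Prdx1 overlapped at the top, whereas Txn2 lay above Mgst1 in both libraries.

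**Figure D1:**
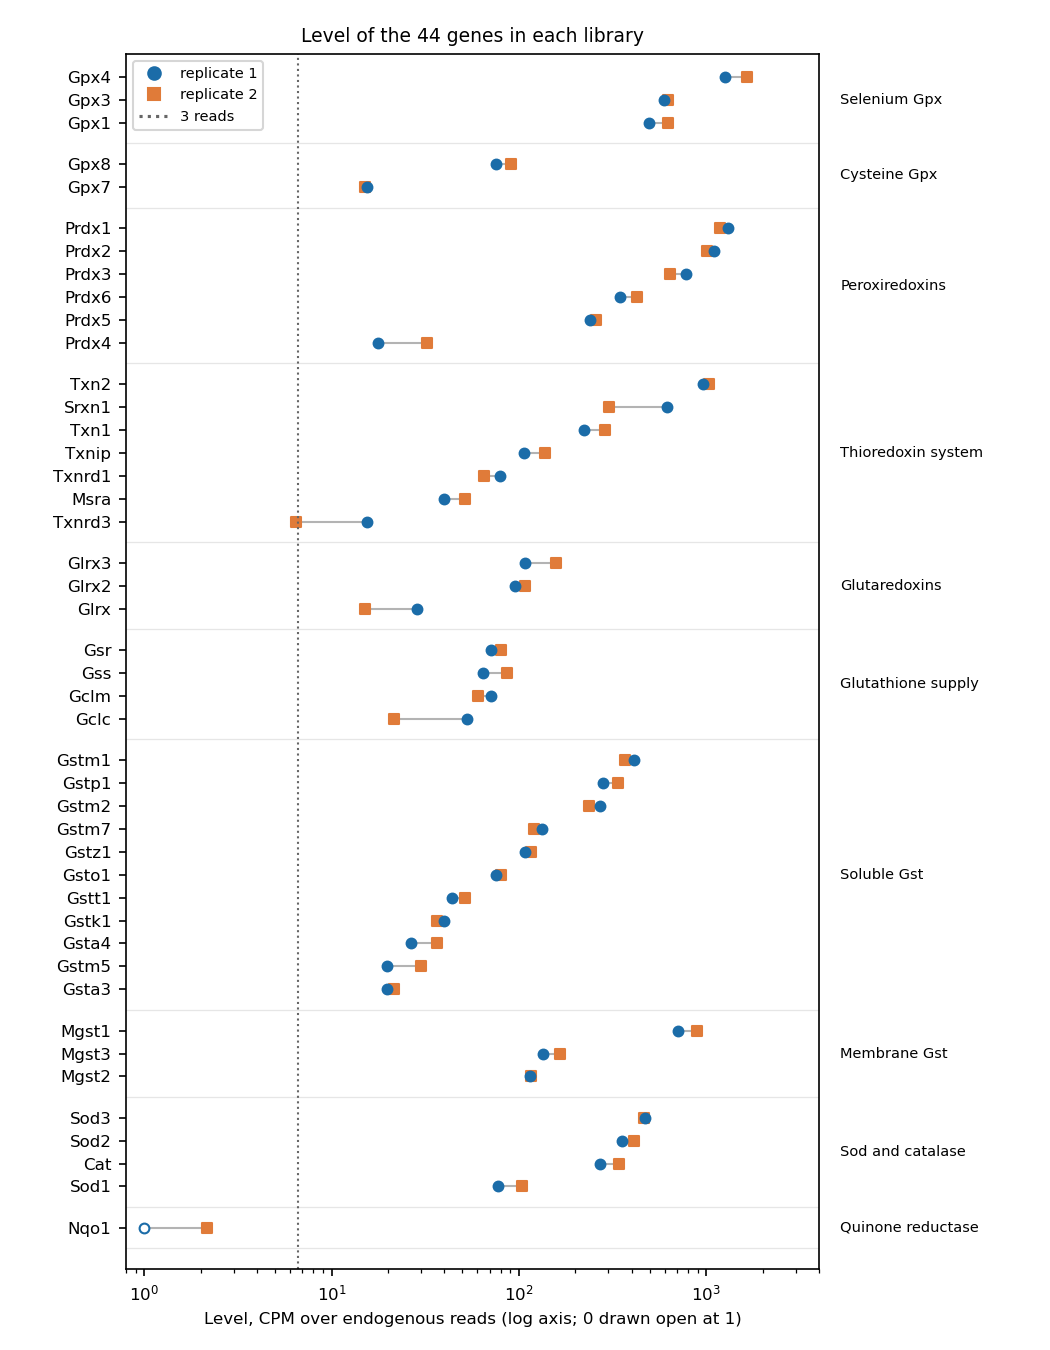
Level of each of the 44 genes in CPM (log axis), grouped by role, with replicate 1 as circles and replicate 2 as squares; the dotted line marks 3 reads and an open circle at 1 CPM stands for 0 reads. Gpx4 and Prdx1 stand highest, Srxn1 has the widest gap among the genes over 100 CPM, and Nqo1 lies under the line.

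Among the selenium peroxidases, Gpx4, which reduces lipid hydroperoxides inside membranes, was the highest of the 44 genes, with 567 reads in replicate 1 and 765 in replicate 2, or 1253 and 1652 CPM. It ranked 57 among all annotated genes. The ratio of replicate 1 to replicate 2 was 0.759 (95% interval 0.679 to 0.847, counting error only; Fisher's exact test, Benjamini-Hochberg adjusted p = 2.44e-05), short of the 2-fold change asked of a call. Gpx3, the secreted plasma peroxidase, had 269 reads in replicate 1 and 288 in replicate 2, 608 ± 19.3 CPM. Gpx1, which removes hydrogen peroxide in cytosol and mitochondria, had 224 reads in replicate 1 and 289 in replicate 2, 559 ± 91.1 CPM. By the same test the ratio was 0.956 for Gpx3 (0.807 to 1.13, Fisher's exact test, adjusted p = 0.912). For Gpx1 it was 0.793 (0.663 to 0.948, Fisher's exact test, adjusted p = 0.106). All 3 were lower in replicate 1, but only Gpx4 at an adjusted p under 0.05. The summed level of the 3 was 2343 CPM in replicate 1 and 2897 CPM in replicate 2. Their cysteine-bearing relatives of the endoplasmic reticulum were far scarcer. Gpx8 had 34 reads in replicate 1 and 42 in replicate 2 (75.1 and 90.7 CPM), and Gpx7 had 7 in each library.

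The 6 peroxiredoxins summed to 3677 ± 166 CPM, the largest of the 10 roles. Prdx1, a cytosolic enzyme, had 592 reads in replicate 1 and 549 in replicate 2 (1308 and 1185 CPM), and Prdx2, its cytosolic relative, had 497 reads in replicate 1 and 470 in replicate 2 (1098 and 1015 CPM). Prdx3, the mitochondrial enzyme, had 355 reads in replicate 1 and 297 in replicate 2 (785 and 641 CPM), a ratio of 1.22 (1.05 to 1.43; Fisher's exact test, adjusted p = 0.117). These 3 leading genes were each somewhat higher in replicate 1, with none called. Prdx6, which uses a single catalytic cysteine, had 157 reads in replicate 1 and 198 in replicate 2 (387 ± 56.9 CPM). Prdx5, found in mitochondria, peroxisomes and cytosol, had 108 reads in replicate 1 and 120 in replicate 2 (249 ± 14.4 CPM). Prdx4, the enzyme of the secretory pathway, was the low one, at 8 reads in replicate 1 and 15 in replicate 2, or 17.7 and 32.4 CPM.

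In the thioredoxin system, Txn2, the mitochondrial thioredoxin, had 436 reads in replicate 1 and 481 in replicate 2 (964 and 1038 CPM). Txn1, its cytosolic counterpart, had 101 reads in replicate 1 and 133 in replicate 2 (223 and 287 CPM). The mitochondrial gene was thus above the cytosolic one in both libraries. Txnrd1, the cytosolic reductase, had 36 reads in replicate 1 and 30 in replicate 2 (72.2 ± 10.5 CPM). Txnrd3, best known from testis, had 7 reads in replicate 1 and 3 in replicate 2. Txnrd2, the mitochondrial reductase, which is outside the 44 genes but in the list of other selenoproteins, had 73 reads in replicate 1 and 75 in replicate 2 (162 ± 0.413 CPM). Txnip, which binds and inhibits thioredoxin, had 48 reads in replicate 1 and 64 in replicate 2 (122 ± 22.7 CPM). Msra, which reduces oxidised methionine, had 18 reads in replicate 1 and 24 in replicate 2 (45.8 ± 8.51 CPM).

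Srxn1, the sulfiredoxin that restores over-oxidised peroxiredoxins, was the only one of the 43 genes tested to be called between the libraries, where 3.16% of all genes were called. It lies on chromosome 2 from 152105516 to 152111376 (plus strand) and had 281 reads in replicate 1 and 140 in replicate 2, or 621 and 302 CPM. The ratio was 2.05 (1.67 to 2.53), a log2 difference of 1.04 with 1 CPM added (Fisher's exact test, adjusted p = 7.67e-11). That size is just past the 2-fold threshold: the adjusted p stayed under 0.05 in all 7 other settings, but the log2 difference was 0.97 with edgeR's TMM scaling, 0.95 over full-length reads and 0.81 without the Genomic class, so the call was lost in these 3. Leaving out the Genomic class removed 38 reads from replicate 1 and 0 from replicate 2. The 17 single-exon reads at the last exon in replicate 2 bore another class, so that setting did not treat the libraries alike. Adrenal cortex markers were also higher in replicate 1, and their part in this difference was not tested. Reads that followed an annotated Srxn1 transcript numbered 242 in replicate 1 and 120 in replicate 2. Prdx3, a substrate of sulfiredoxin, had a log2 ratio of 0.29 and was not called.

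Of the glutaredoxins, Glrx3, which handles iron-sulfur clusters in the cytosol, led with 49 reads in replicate 1 and 73 in replicate 2 (133 ± 34.9 CPM). Glrx2, the mainly mitochondrial enzyme, had 43 reads in replicate 1 and 50 in replicate 2 (101 ± 9.13 CPM). Glrx, the classical cytosolic glutaredoxin, had 13 reads in replicate 1 and 7 in replicate 2. None was called.

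The enzymes of glutathione synthesis and recycling had few reads, and the 4 genes summed to 253 ± 7.28 CPM. Gclm, the modifier subunit of glutamate-cysteine ligase, had 32 reads in replicate 1 and 28 in replicate 2. Gclc, its catalytic subunit, had 24 reads in replicate 1 and 10 in replicate 2. The ratio of replicate 1 to replicate 2 for Gclc was 2.46 with a wide interval (1.13 to 5.76). Gclc was not called at this depth (Fisher's exact test, adjusted p = 0.15). Gss, which adds glycine, had 29 reads in replicate 1 and 40 in replicate 2, and Gsr, which reduces oxidised glutathione with NADPH, had 32 reads in replicate 1 and 37 in replicate 2.

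The 11 soluble glutathione S-transferases, which join glutathione to electrophiles, summed to 1432 CPM in replicate 1 and 1438 CPM in replicate 2. Gstm1 of the mu class had 187 reads in replicate 1 and 170 in replicate 2 (390 ± 32.7 CPM), Gstp1 of the pi class 128 reads in replicate 1 and 157 in replicate 2 (311 ± 39.6 CPM), and Gstm2 122 reads in replicate 1 and 110 in replicate 2 (254 ± 22.7 CPM). These 3 genes carried most of the soluble reads. Gstm7 had 60 reads in replicate 1 and 56 in replicate 2, and Gstz1, the zeta enzyme that acts in tyrosine breakdown, had 49 reads in replicate 1 and 54 in replicate 2. The omega gene Gsto1 had 34 reads in replicate 1 and 37 in replicate 2, the theta gene Gstt1 had 20 reads in replicate 1 and 24 in replicate 2, and the mitochondrial kappa gene Gstk1 had 18 reads in replicate 1 and 17 in replicate 2. Gsta4, which clears the lipid aldehyde hydroxynonenal, had 12 reads in replicate 1 and 17 in replicate 2. Gsta3, whose human relative is a steroid isomerase, had 9 reads in replicate 1 and 10 in replicate 2 (20.7 ± 1.20 CPM). Gstm5 had 9 reads in replicate 1 and 14 in replicate 2. Log2 ratios of the 11 genes ran from -0.58 (Gstm5) to 0.18 (Gstm2), with none called and none at an unadjusted p under 0.05 by Fisher's exact test.

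Of the membrane transferases, Mgst1, an enzyme of the endoplasmic reticulum and outer mitochondrial membrane, had 318 reads in replicate 1 and 416 in replicate 2 (703 and 898 CPM), more than any soluble transferase. Its ratio was 0.783 (0.674 to 0.908; Fisher's exact test, adjusted p = 0.0204), under the 2-fold needed for a call, and without the Genomic class the adjusted p was 0.11. That setting removed 25 single-exon Mgst1 reads from replicate 2 and 0 from replicate 1, where 7 single-exon reads bore another class. It therefore did not treat the libraries alike. Mgst3 had 61 reads in replicate 1 and 77 in replicate 2 (151 ± 22.2 CPM), and Mgst2 had 52 reads in replicate 1 and 54 in replicate 2 (116 ± 1.17 CPM).

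Of the superoxide dismutases, Sod3, the extracellular enzyme, had 212 reads in replicate 1 and 215 in replicate 2 (466 ± 3.09 CPM). Sod2, the manganese enzyme of mitochondria, had 160 reads in replicate 1 and 190 in replicate 2 (382 ± 40.0 CPM). Both exceeded Sod1, the copper-zinc enzyme of the cytosol, at 35 reads in replicate 1 and 48 in replicate 2 (77.3 and 104 CPM). Their leading forms differ in length, with 3738 bases in Sod3, 5861 in Sod2 and 641 in Sod1, and the part of length was not tested. Sod1 shares sequence with a pseudogene that also took reads. Cat, the peroxisomal catalase, had 123 reads in replicate 1 and 159 in replicate 2 (308 ± 50.5 CPM). Nqo1, a quinone reductase and a classic target of the transcription factor Nrf2, had 0 reads in replicate 1, which allows up to 6.63 CPM, and 1 in replicate 2, so it was not tested.

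Across the 43 genes with at least 10 reads summed over the libraries, 15 were higher in replicate 1 and 28 in replicate 2. The 28 are 65.1%, against 44.8% of all 8135 genes tested. The median log2 ratio was -0.12, against 0.03 over all genes. Within 0.5 either way lay 36 of the 43 (83.7%) and 59.4% of all genes. That share varies with depth: at 50 or more reads summed it was 93.8% of 32 members and 72.7% of 3261 genes. A call required an adjusted p under 0.05 and at least 2-fold. The single call, Srxn1, stands beside 257 calls among the 8135 genes, or 3.16%. Of all genes, 1.71% were called toward replicate 1 and 1.45% toward replicate 2. At an unadjusted p under 0.05 there were 7 of the 43 genes (16.3%) and 16.9% of all genes. The share called among these genes is therefore near the background. Such a test on reads compares these 2 libraries only.

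**Figure D2:**
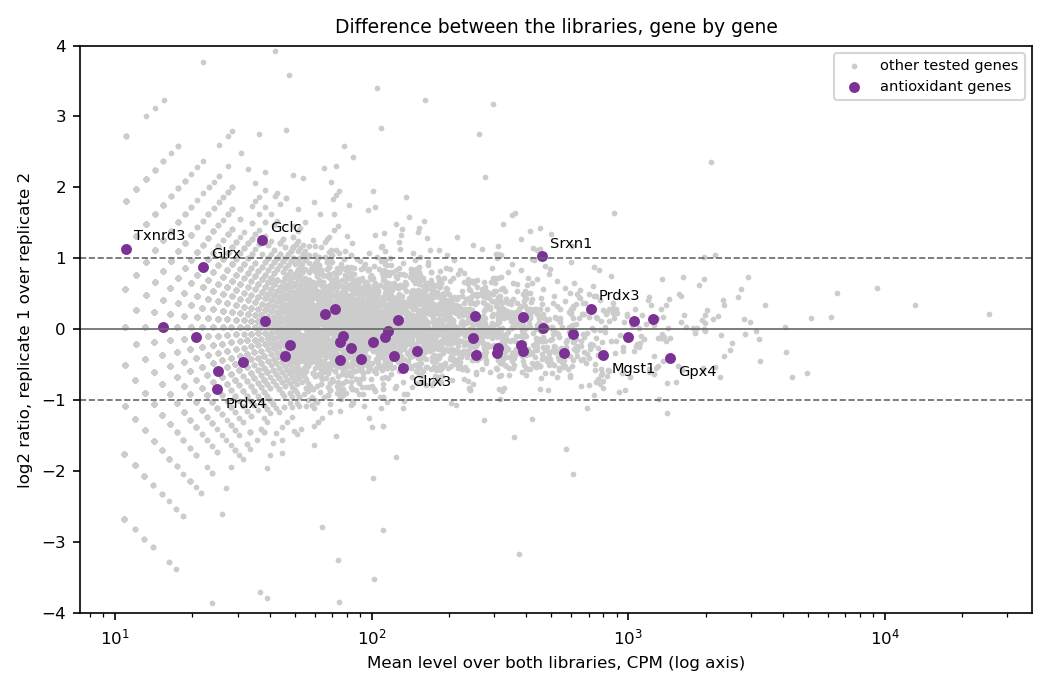
Mean level in CPM (log axis) against the log2 ratio of replicate 1 over replicate 2, for the antioxidant genes (purple) and other tested genes (grey); dashed lines mark 2-fold, and 68 genes beyond a log2 ratio of 4 either way are not drawn. Srxn1 lies just above the upper line, while Gpx4 and Mgst1 lie below 0.

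Other features moved with these differences. All 7 adrenal cortex markers were higher in replicate 1, summing to 73494 CPM in replicate 1 and 58781 CPM in replicate 2. Of these, Nr5a1 was called (274 reads in replicate 1 and 129 in replicate 2, log2 ratio 1.12; Fisher's exact test, adjusted p = 5.34e-12). Of 7 chromaffin markers 6 were lower in replicate 1, and their sum was 11784 CPM in replicate 1 and 16815 CPM in replicate 2. The 12 pancreatic acinar markers summed to 79.6 CPM in replicate 1, with 10 at 0, and 7871 CPM in replicate 2. The 7 liver markers summed to 6.63 CPM in replicate 1, with 5 at 0, and 566 CPM in replicate 2. In replicate 1 the markers of fat summed to 8281 CPM, of red blood cells to 4820 CPM and of macrophages to 769 CPM. In replicate 2 the same lists summed to 7958, 4020 and 913 CPM, and 4 of 5 kidney markers were at 0 in both libraries. All 12 pancreatic and all 7 liver markers were called lower in replicate 1. Of the 7 fat markers 3 were higher and 4 lower in replicate 1. Among them Ucp1, the uncoupling protein of brown fat, was called lower (198 reads in replicate 1 and 437 in replicate 2, log2 ratio -1.11; Fisher's exact test, adjusted p = 2.43e-18), while Fabp4 (log2 ratio -0.75) and Car3 (log2 ratio 0.74) did not reach the fold needed for a call. Of the red blood cell markers Alas2, an enzyme of haem synthesis, was called higher (26 reads in replicate 1 and 6 in replicate 2, log2 ratio 2.07; Fisher's exact test, adjusted p = 0.00700). The ratio also varied with transcript length: in the shortest of 5 equal-sized bins, with models up to 1363 bases, the median log2 ratio was -0.20 over 1569 genes and -0.22 over the 23 antioxidant genes. From the next bin to the longest, the all-gene medians were 0.12, 0.22, 0.15 and 0.03. The antioxidant genes of those bins had medians of 0.02 (6 genes), -0.17 (7 genes), 0.58 (4 genes) and 0.00 (2 genes), so only in the shortest bin, where most of them lie, were both medians below 0. The part of tissue makeup and of length in the antioxidant results was not tested.

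The reads of these genes were mostly full-length. The Known class follows an annotated transcript, NIC joins annotated splice sites in an unannotated combination, and NNC uses an unannotated splice site. These full-length classes held 93.8% of the members' reads in replicate 1 (95% Wilson interval 93.2 to 94.4) and 92.0% in replicate 2 (91.3 to 92.7). Over the other annotated genes they held 86.5% in replicate 1 and 84.6% in replicate 2. NIC and NNC reads were a small part, 0.538% and 1.27% in replicate 1 against 4.27% and 3.35% for the other genes in that library. ISM, an incomplete match to a transcript, held 4.23% of member reads in replicate 1 and 5.78% in replicate 2. Genomic reads, which overlap the gene without its splicing, held 1.92% in replicate 1 and 2.17% in replicate 2.

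Per gene, the mean full-length share had a median of 93.9% over 33 genes with at least 20 reads in each library, against 92.4% over all 3416 such genes. None of the 33 was called for its share between the libraries by Fisher's exact test with a difference of at least 10 percentage points, while 0.0878% of all genes were. By the same test, 3 of the 33 and 192 of all 3416 genes had an unadjusted p under 0.05. Sod1 was lowest of the 33, at 68.6% in replicate 1 and 60.4% in replicate 2. With Genomic reads left out, Srxn1 (100% in replicate 1 and 87.9% in replicate 2; Fisher's exact test, adjusted p = 5.29e-06) and Gstm2 (98.3% in replicate 1 and 83.6% in replicate 2; adjusted p = 0.00882) were called, beside 0.952% of all genes. In both genes, single-exon models at the 3′ end were classed differently in the libraries. In Srxn1, replicate 1 had 38 reads in a Genomic model of 3330 bases and replicate 2 had 17 reads in an ISM model of 2388 bases. The ISM model equals the last exon of Srxn1-201, and the Genomic model reaches 942 bases further into the intron. Gstm2 likewise had 7 Genomic reads in replicate 1 and 11 ISM reads in replicate 2 at its last exon.

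**Figure D3:**
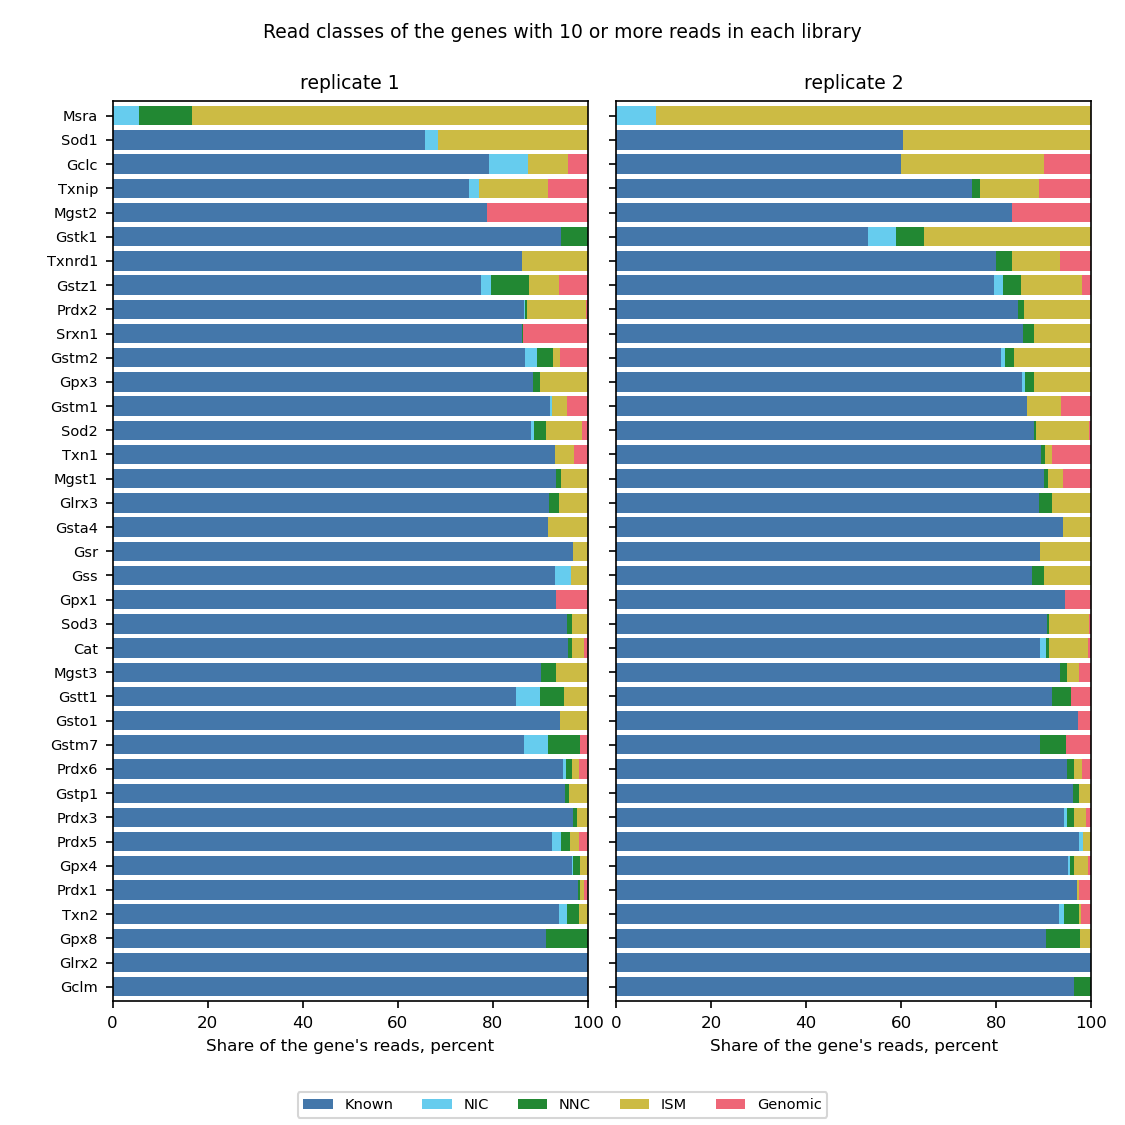
Share of each gene's reads in the classes Known, NIC, NNC, ISM and Genomic, in percent, for 37 genes with at least 10 reads in each library, with replicate 1 on the left and replicate 2 on the right. Msra has no Known reads, Sod1 has a large ISM share, and Srxn1 changes from Genomic to ISM.

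Most of these genes were read as 1 dominant transcript. For the 32 genes that reached 20 full-length reads per library, the leading form held a median of 97.5% of full-length reads, against 91.9% over all 3030 such genes. In 22 of the 32 (68.8%) it held at least 95%, against 37.4% of all 3030 genes. An annotated form led in all 32. Over all genes 2.64% were led by an unannotated form, so 0 of 32 is near that share. The share of the leading form was called in 0 of the 32 genes, beside 0.066% of all genes, and 3 of the 32 (Txnip, Glrx2 and Srxn1) had an unadjusted p under 0.05 by Fisher's exact test, as did 131 of all 3030. Unannotated forms were many but held few reads. The 36 NIC forms had 30 reads in replicate 1 and 21 in replicate 2, and the 89 NNC forms had 71 and 72. The 87 Known forms had 5132 reads in replicate 1 and 5417 in replicate 2. None of the unannotated forms had 5 reads in each library, and the same count was not made over all genes.

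**Figure D4:**
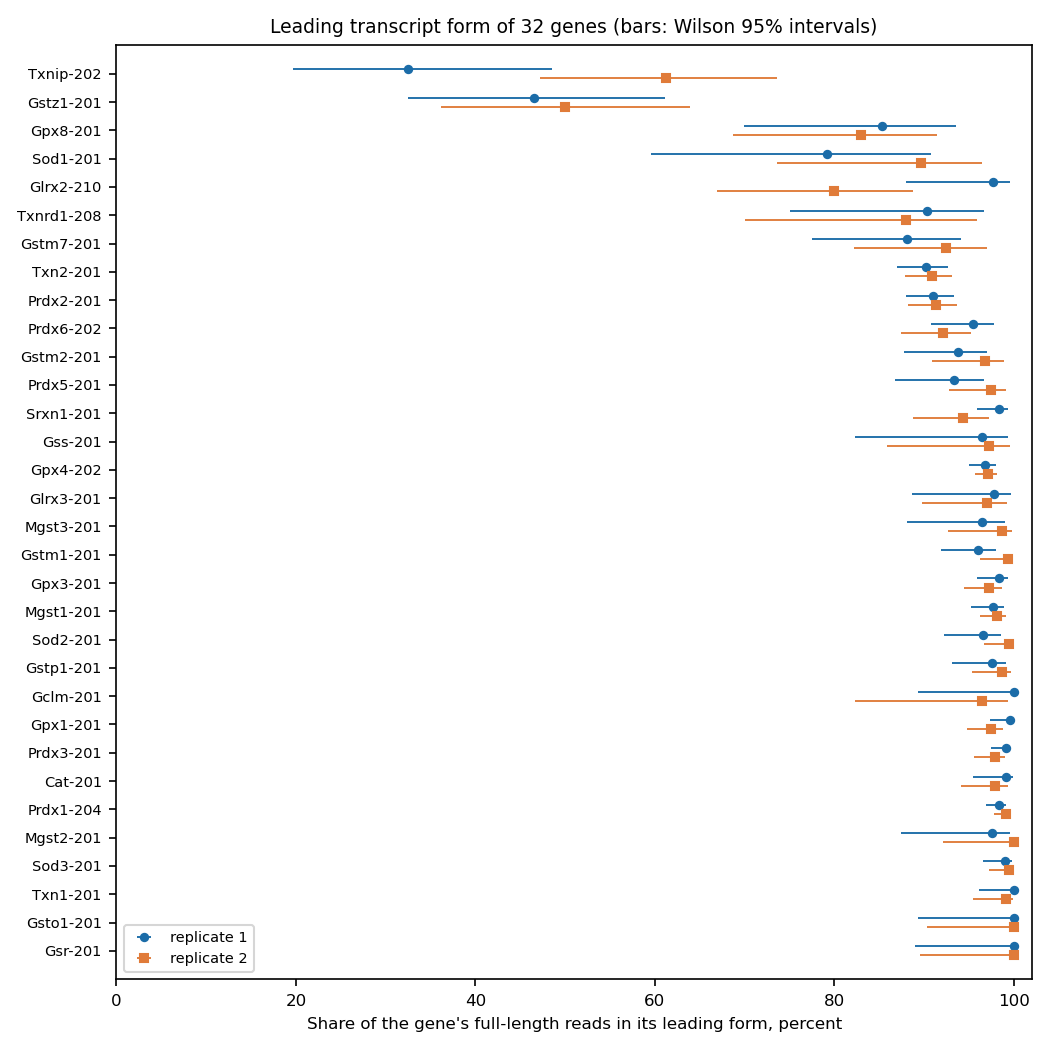
Share of full-length reads in the leading form of 32 genes, in percent, with replicate 1 as circles, replicate 2 as squares and Wilson 95% intervals as bars. Txnip-202 and Gstz1-201 are the lowest and Txnip-202 and Glrx2-210 differ most between the libraries.

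Txnip had the lowest mean share of a leading form. Txnip-202 had 12 of 37 full-length reads in replicate 1 and 30 of 49 in replicate 2 (32.4% in replicate 1 and 61.2% in replicate 2), while Txnip-201 had 20 reads in replicate 1 and 15 in replicate 2 (54.1% and 30.6%). The share of Txnip-202 differed by -28.8 percentage points (Fisher's exact test, unadjusted p = 0.00973, adjusted p = 0.708), which is not a call. The forms share the donor of the first intron and differ among introns only in its acceptor on chromosome 3: the intron ends at 96558888 in Txnip-202 and at 96558891 in Txnip-201. The coding sequences are 1194 and 1191 bases long. The joined exon bases show the difference, with the extra bases of Txnip-202 in capitals.
Txnip-202: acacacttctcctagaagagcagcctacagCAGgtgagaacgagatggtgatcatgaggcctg
Txnip-201: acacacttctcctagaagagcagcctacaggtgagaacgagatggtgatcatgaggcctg
The sites lie 3 bases apart, so the assignment of a read to either form rests on 3 bases.

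Gstz1 was split between alternative first exons. Gstz1-201, starting at 87147718 on chromosome 12, had 20 of 43 full-length reads in replicate 1 and 23 of 46 in replicate 2. Gstz1-204, starting at 87157608, had 17 in each library (39.5% and 37.0%). The annotated coding sequences are 651 and 648 bases long.

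Glrx2 was led by Glrx2-210, with 42 of 43 full-length reads in replicate 1 and 40 of 50 in replicate 2 (97.7% and 80.0%; Fisher's exact test, unadjusted p = 0.00953, adjusted p = 0.708). Glrx2-202, with 1 read in replicate 1 and 7 in replicate 2, uses a donor 74 bases upstream in the first exon. Its annotated coding sequence is 372 bases, against 471 in Glrx2-210. The coding bases of Glrx2-210 from its start codon into exon 2 follow, with the bases absent from Glrx2-202 in capitals.
Glrx2-210: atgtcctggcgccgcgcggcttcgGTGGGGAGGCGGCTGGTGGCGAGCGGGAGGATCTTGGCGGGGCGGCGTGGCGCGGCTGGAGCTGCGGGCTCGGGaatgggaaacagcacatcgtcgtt
Mouse Glrx2 is known to give mitochondrial and other products by way of its first exon.

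Gpx4 was almost wholly of a single form. Mammalian Gpx4 has mitochondrial and cytosolic products that start at different ATG codons of the same first exon, and a nuclear product from another first exon. Gpx4-202 held 540 of 558 full-length reads in replicate 1 and 717 of 738 in replicate 2 (96.8% and 97.2%). Gpx4-201, with the alternative first exon, had 0 reads in replicate 1 and 1 in replicate 2. Gpx4-207 had 8 reads in replicate 1 and 5 in replicate 2. The first 99 coding bases of Gpx4-202 hold an in-frame ATG at codons 1 and 28, in capitals, and the second lies at the very end of the first exon (chromosome 10, 80053713).
Gpx4-202: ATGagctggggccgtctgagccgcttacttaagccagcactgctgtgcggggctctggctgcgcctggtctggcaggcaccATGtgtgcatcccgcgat
Both codons lie in this form, so the read counts do not separate products that start at either.

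The forms Prdx2-203, Txn2-204 and Txnrd1-201 have the annotated coding sequence of their leading form, whereas Gpx8-202 and Sod1-202 do not. Some other forms of Prdx2 and Txn2 with reads also differ from the leading form in coding sequence. Prdx2-203 had 29 reads in replicate 1 and 24 in replicate 2 (6.68% and 5.96% of full-length reads) and differs from Prdx2-201 in the acceptor of the first intron, with the same coding sequence of 597 bases. Txn2-204, which keeps the first intron of Txn2-201, had 23 reads in replicate 1 and 21 in replicate 2 (5.37% and 4.48%), also with an unchanged coding sequence. Txnrd1-208 led Txnrd1 with 28 of 31 full-length reads in replicate 1 and 22 of 25 in replicate 2, and its coding sequence of 1500 bases equals that of Txnrd1-201. Gpx8-202 had 2 reads in replicate 1 and 4 in replicate 2 and lacks an exon. Its annotated coding sequence is 273 bases, against 630 in Gpx8-201. Sod1-202, a retained-intron form, had 4 reads in replicate 1 and 3 in replicate 2 beside 19 (replicate 1) and 26 (replicate 2) of Sod1-201.

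Several genes had recurrent partial models. Msra had no Known read in either library: 15 of its 18 reads in replicate 1 and 22 of 24 in replicate 2 lay in 1 ISM model of 6 exons (chromosome 14, 64122625 to 64440917, minus strand). Msra-201 has 11 exons, and the model lacks the 5 upstream ones, which are non-coding. All 702 coding bases of Msra-201 lie within the model. Mgst1 also had a 3-exon model that spans its whole coding sequence, with 10 reads in replicate 1 and 13 in replicate 2. Some multi-exon partial reads of the 44 genes lay in models reaching from the first to the last coding base of the leading form. These spanning reads were 33 of 115 in replicate 1 and 42 of 177 in replicate 2. For Msra, which had no Known read, Msra-201 was used. Only the ends were compared, so the exons between them may differ from the leading form. Most of the spanning reads were those of Msra (15 in replicate 1 and 22 in replicate 2) and Mgst1 (10 in replicate 1 and 13 in replicate 2).

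Other partial models stopped short of the 3′ end of the leading form. In Prdx2, 60 reads of replicate 1 and 65 of replicate 2 lay in a single-exon model of 312 bases that begins at the last exon and ends 523 bases before the end of Prdx2-201, at 84974311 on chromosome 8. The annotated retained-intron form Prdx2-205 ends at the same base. In Sod2, 6 reads of replicate 1 and 13 of replicate 2 lay in a 4-exon model ending at 13015616 on chromosome 17, 4518 bases before the end of Sod2-201. The model lacks the first exon and spans 646 of 669 coding bases. Sod3 had 7 reads of replicate 1 and 18 of replicate 2 in a single-exon model that holds its entire coding sequence of 756 bases and ends 1911 bases before the annotated end in replicate 1 and 1913 in replicate 2. These are model coordinates, and reads of unequal length may be gathered in a model without junctions. In Sod1, 7 reads of replicate 1 and 15 of replicate 2 lay in the last exon of 180 bases alone.

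**Figure D5:**
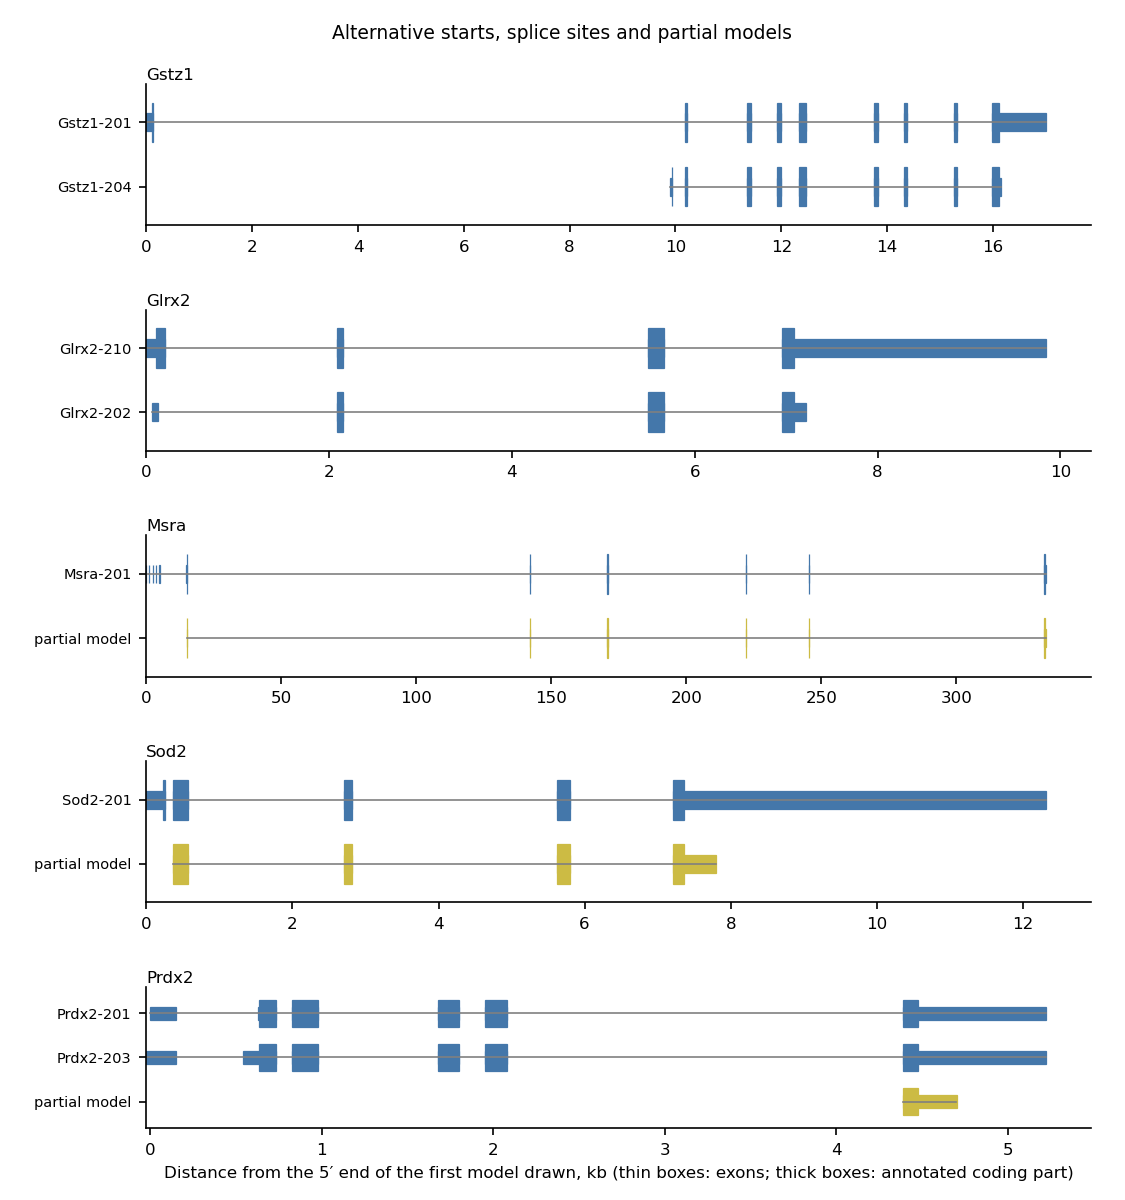
Exon maps of Gstz1, Glrx2, Msra, Sod2 and Prdx2 by distance from the 5′ end of the first form drawn, in kb, with exons as thin boxes, coding parts as thick boxes, annotated forms in blue and the most-read ISM model in yellow. The Msra model begins after the 5 upstream exons of Msra-201, and the Sod2 and Prdx2 models end before the annotated 3′ end.

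Some counts may depend on other genes or pseudogenes that share sequence with a member. Gpx4-202 shares 72.1% of its 31-base words with Gpx4-ps2, which had 44 reads in replicate 1 and 62 in replicate 2, and Sod1-201 shares 34.9% with the pseudogene Gm8566, which had 9 reads in replicate 1 and 21 in replicate 2. Gstp1-201 shares 67.5% with Gstp2, which had 6 reads in each library. Levels of Gpx4, Sod1 and Gstp1 are uncertain to the extent that reads were assigned to the wrong copy.

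None of the related genes tested outside the 44 was called. Across 7 lists of 114 genes, 81 were tested and 0 were called, with 4 at an adjusted and 11 at an unadjusted p under 0.05 by Fisher's exact test. Over all 8135 genes the counts were 257 called, 525 at an adjusted and 1377 at an unadjusted p under 0.05. Of the 81 genes, 49 were higher in replicate 1, and their median log2 ratio was 0.15. Regulators of Nrf2 had a median log2 ratio of 0.58 over 6 genes, of which 4 were higher in replicate 1. The most abundant were Sqstm1 (632 ± 153 CPM), Nfe2l1 (230 ± 37.9 CPM, log2 ratio -0.34) and Keap1 (101 ± 15.3 CPM, log2 ratio -0.31). Sqstm1, the autophagy adaptor that binds Keap1, had 335 reads in replicate 1 and 243 in replicate 2 (log2 ratio 0.50; Fisher's exact test, adjusted p = 0.00134). Other Nrf2 targets had a median of 0.16 over 11 genes. They were led by Tkt (1299 ± 103 CPM), the NADPH-making Me1 (1196 ± 238 CPM, log2 ratio 0.41, Fisher's exact test, adjusted p = 0.000134) and Taldo1 (1148 ± 76.7 CPM), and Slc7a11, the cystine importer, had 0 reads in both libraries.

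Selenocysteine machinery had a median of 0.32 over 7 genes. Sephs2, which makes the selenium donor, stood at 203 ± 18.3 CPM, Trnau1ap at 43.7 ± 6.90 CPM and the elongation factor Eefsec at 32.8 ± 9.81 CPM. Other selenoproteins had a median of -0.12 over 12 genes, led by Selenow (298 ± 33.7 CPM), Selenok (272 ± 24.6 CPM) and Selenop (198 ± 35.7 CPM). Other glutathione genes had a median of 0.09 over 15 of 35 genes, led by the mitochondrial carrier Slc25a39 (542 ± 39.9 CPM), Esd (276 ± 12.3 CPM) and the glyoxalase Glo1 (252 ± 43.7 CPM). Gpx2, Gpx5, Gpx6 and Hpgds were at 0 in both libraries. Proteins with a thioredoxin fold had a median of 0.24 over 16 genes, led by P4hb (841 ± 117 CPM), Glrx5 (574 ± 49.2 CPM) and Pdia3 (522 ± 42.6 CPM). NADPH and other redox genes had a median of 0.01 over 14 genes. They were led by the ferritin chains Fth1 (4116 ± 648 CPM, log2 ratio -0.32, Fisher's exact test, adjusted p = 6.06e-10) and Ftl1 (2299 ± 88.6 CPM) and by Park7 (400 ± 3.53 CPM).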

How the data were processed

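Total RNA of 2 adrenal libraries was read as long cDNA reads, per the labels. The authors deposited whole read counts per transcript model, not normalized, in the classes of the program TALON, with models on mm10 and GENCODE M21, per the deposited notes and file headers. For the aligner and for TALON, the sources used here give no version. Spike-in reads (5512 in replicate 1 and 15792 in replicate 2) were left out of totals, so that 1 read was 2.21 CPM in replicate 1 and 2.16 CPM in replicate 2. Deposited counts were summed per gene over all classes. Two-sided Fisher's exact tests with Benjamini-Hochberg adjustment over all genes, read share tests and Wilson and exact conditional intervals used scipy 1.17.1 with pandas 2.3.3. They cover counting error only, and reads without molecular identifiers are not independent molecules. With both libraries in 1 group, edgeR's quasi-likelihood test has no contrast to test, and setting 1 library against the other leaves no residual degree of freedom. TMM factors (edgeR 4.0.16) and size factors (DESeq2 1.42.0) served as alternative scales. Gene tests needed 10 reads summed and added 1 CPM. Share tests needed 20 reads in each library and 10 percentage points. Unannotated forms were matched by intron chain. The tests were checked on simulated counts with set changes and counting error only. The simulated libraries did not differ in tissue makeup or length, so the check does not cover these. Members with at least 10 reads and the 3 most abundant genes of each pathway list are named; forms are named when leading or when they had 5 reads in each library and 5% of the full-length reads. A few smaller forms (Gpx4-201, Gpx4-207, Glrx2-202, Gpx8-202, Sod1-202, Txn2-204), the partial models, Txnrd2, Slc7a11 and the other listed genes at 0 were named after their values were seen. Members and lists were chosen with earlier results of these data known.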

Additional observations from a re-analysis of the deposited data

Results flagged for a closer look

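Reads on the strand opposite to Srxn1 and Sod2, in data outside the gene totals, exceeded the 3 reads that a count of 0 allows in both libraries. Opposite Srxn1 there were 17 reads in replicate 1 and 10 in replicate 2, all in a single-exon model of 1788 bases (chromosome 2, 152106260 to 152108047) that lies within the intron of Srxn1-201. Its end at 152108047 is also the start of the Genomic sense model of replicate 1. Opposite Sod2 there were 16 reads in replicate 1 and 23 in replicate 2. The most-read models, 427 bases with 16 reads in replicate 1 and 484 bases with 21 reads in replicate 2, lie inside the 3′ untranslated part of Sod2-201 on chromosome 17. None of these models has a splice junction, and the source of their reads was not tested.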

How the results depend on the processing

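No paired analysis was possible because the study has 1 group. Srxn1 was the call among the 43 tested genes in the main setting and with DESeq2 size factors, no filter, 20 reads summed, or pancreas and liver markers left out. There were 0 calls (log2 ratios of Srxn1 0.97, 0.95 and 0.81) with TMM factors, with full-length reads only and without the Genomic class. The Srxn1 log2 ratio ranged from 0.81 to 1.04. The value of 0.81 came without the Genomic class, a setting that removed 38 Srxn1 reads from replicate 1 and 0 from replicate 2. With Genomic reads left out, 2 genes changed their full-length share in place of 0, beside 31 of 3257 over all genes. The summed level was 14461 ± 713 CPM over full-length reads. The full-length share was 91.3% ± 1.09 over Known reads only. Leaving out 1 replicate gave summed levels of 12323 to 12923 CPM and full-length shares of 92.0% to 93.8%. Leaving pancreas and liver markers out of the summed level, a setting chosen after seeing the data, gave 12678 ± 501 CPM. No direction reversed among Srxn1, Gpx4, Mgst1 and Gclc under the 7 alternatives of the gene test. Over all tested members, the sign of the log2 ratio did not stay the same in 2 genes with TMM factors. The same held for 2 genes with DESeq2 size factors and 1 gene over full-length reads. With TMM factors 13 genes were higher in replicate 1 and 30 in replicate 2. A count of 0 allows up to 6.63 CPM.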

Other observations

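Opposite Sod1, a single-exon model of 3672 bases held 10 reads in replicate 2, and 3 antisense reads were seen in replicate 1. Gstk1, too shallow for the share test, had 18 of 18 full-length reads in replicate 1 and 11 of 17 in replicate 2. Single-exon models of Mgst1 were classed as ISM in replicate 1 (7 reads) and as Genomic in replicate 2 (25 reads), and those of Txn2 likewise (7 ISM and 10 Genomic reads).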
